A study of Homo sapiens with 12 samples.

Results

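Toll-like receptor and NOD sensing genes were followed in HT29, a widely used line of human colon cancer cells. The 10 genes were TLR2, TLR3, TLR4, TLR5, MYD88, LY96, CD14, NOD1, NOD2 and IRAK1, taken by name from the 60675 gene IDs of the table, and 6 of the 10 had enough counts to be among the 15374 genes tested. The comparisons address which microbial sensors HT29 cells express and whether a water extract of Aconitum carmichaeli Debeaux (ACD), the aconite root of herbal medicine, changes them. RNA was sequenced after 24 h with vehicle or with ACD. The extract was given at a low (20 µg/mL), a medium (100 µg/mL) or a high dose (500 µg/mL). Each of the 4 groups had 3 libraries, and all were cells of the same line. Per the paper's methods, the vehicle was PBS with 2% DMSO, and the extract stock was made in PBS with 2% DMSO too. The extract solution was added to wells that already held growth medium. The 2% is thus the DMSO level of the solution, not of the wells. A longer treatment note kept with the libraries speaks instead of Poria cocos, a fungus, and the groups used here follow the ACD named in titles and treatment field. Nothing in the labels says that the 3 libraries of a group came from separate cultures, so the p-values measure only the spread between these libraries, which may be technical.

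Toll-like receptors (TLRs) are membrane proteins that bind microbial molecules, with TLR2 (lipoproteins), TLR4 (lipopolysaccharide, LPS) and TLR5 (flagellin) at the cell surface and TLR3 (viral RNA) in endosomes. LPS reaches TLR4 through CD14, and TLR4 responds to it only together with the secreted co-receptor MD-2, the product of LY96. MYD88 is the adaptor below all of these receptors except TLR3, which signals through TICAM1, and MYD88 assembles the kinases IRAK4 and IRAK1. NOD1 and NOD2 are cytosolic receptors for fragments of the bacterial cell wall and signal through the kinase RIPK2. Both routes lead to NF-kB and to chemokine genes. Epithelial cells of the colon live beside dense bacteria and are known to keep surface TLR signalling low.

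The libraries held 15941255 to 33866644 expected counts. High-dose replicate 2 stood apart from the other libraries. It lay at −70.7 on the first principal component, where the others lay between −14.7 and 14.5. The share of counts from the mitochondrial genome was 14% to 16.6% at the high dose and 7.41% to 11% in the other groups. Library sizes without the mitochondrial genome left the counts of called sensing and pathway genes unchanged at each dose. Any part of this share beyond the scaling was not tested. The epithelial identity was clear, since all 12 colon epithelium markers examined were among the tested genes and 11 of them had at least 1 CPM (counts scaled to library size, the unit of edgeR's cpm function) in every library. Of 12 immune cell markers, 4 (CD2, MS4A1, CD163 and TYROBP) had no count in any library, and PTPRC, the common leukocyte marker, stayed at or below 0.123 CPM. Only ITGAM and CD68 of that list were tested.

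In vehicle, the adaptor and the kinase were far more abundant than the receptors above them. Levels are compared between genes only per length, with the expected counts divided by the length of the merged exons and scaled to a common total (the scale of TPM). IRAK1 (ENSG00000184216, chromosome X, 154010506 to 154019902 on GRCh38) had the highest level of the 10 genes, 435 ± 39.1 on that scale (SD, n = 3 libraries), which lay at percentile 98.6 of the tested genes. MYD88 (ENSG00000172936, chromosome 3, 38138552 to 38143024) followed at 40.1 ± 2.51, at percentile 78.1, and IRAK1 was 10.8 times higher than MYD88. The receptors lay in the lower part of the tested range.

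CD14 (ENSG00000170458, chromosome 5, 140631728 to 140633700) had 7.02 ± 0.718 on the per-length scale in vehicle, NOD1 (ENSG00000106100, chromosome 7, 30424527 to 30478784) 3.33 ± 0.32, TLR4 (ENSG00000136869, chromosome 9, 117704175 to 117724735) 2.78 ± 0.372 and TLR3 (ENSG00000164342, chromosome 4, 186068911 to 186088073) 1.46 ± 0.205. These 4 genes lay at percentiles 39.2, 27.3, 24.9 and 16.8. The vehicle libraries of NOD1 and TLR4, which follow each other in this order, overlapped, so that the order of this pair is not settled, whereas neighbours among the other tested genes did not overlap. TLR3 was 36.9 times higher than TLR5, the next gene down.

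**Figure D1:**
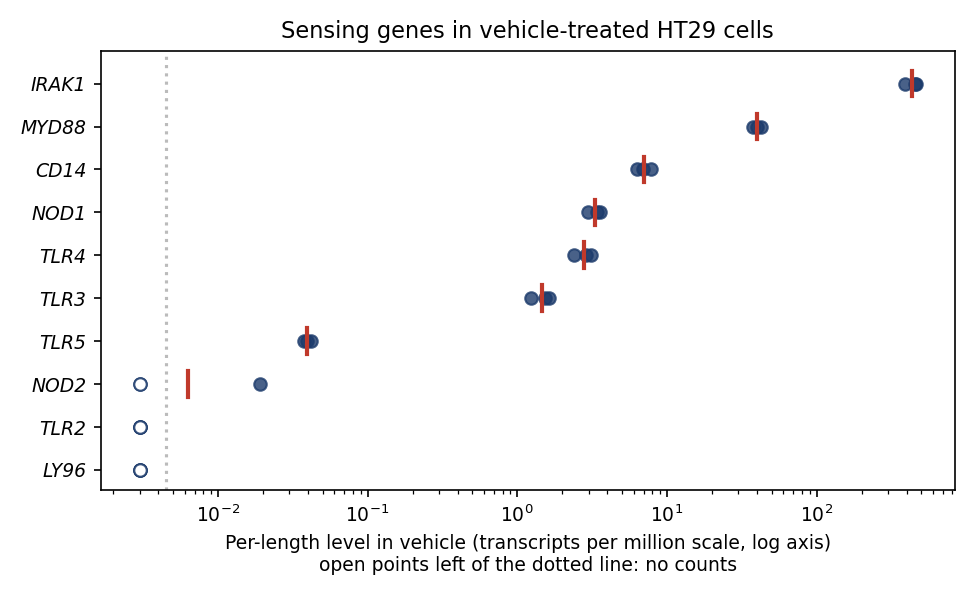
Per-length level of the 10 sensing genes in the 3 vehicle libraries (TPM scale, log axis). Points are libraries, red bars are means, and open points left of the dotted line are libraries with no count. IRAK1 lies at 435 and MYD88 at 40.1, CD14, NOD1, TLR4 and TLR3 lie between 1.46 and 7.02, and TLR5, NOD2, TLR2 and LY96 lie below 0.04 or at 0.

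The 4 remaining genes were at or near 0. TLR2 (ENSG00000137462, chromosome 4, 153684070 to 153706260) had 0 counts in all 12 libraries, which allows at most 0.01 CPM over all of them (3 counts of the total, counting error only). LY96 (ENSG00000154589, chromosome 8, 73991392 to 74029079) had 3 counts in all, 1 in a medium-dose library and 1 in each of 2 high-dose libraries. NOD2 (ENSG00000167207, chromosome 16, 50693588 to 50733077) also had 3 counts in all, 1 each at vehicle, medium and high dose. The libraries thus held TLR4 and CD14 RNA beside almost none of the gene for MD-2, and NOD1 RNA beside almost none of NOD2.

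TLR5 (ENSG00000187554, chromosome 1, 223109404 to 223143248) was the only one of these 4 found in every library, with 1 to 3 counts in each and 23 in all. The sums over 3 libraries were 7 counts for vehicle and 5, 6 and 5 for the rising doses. None of the 4 was tested, and a fall or a small rise in TLR5, LY96, NOD2 or TLR2 was not detectable at this depth. No library held more than 3 counts of any of them, so a large rise was not seen at any dose.

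None of the 6 tested sensing genes was a differentially expressed gene (DEG) at any dose. A DEG needed a fold change over 1.5 and an adjusted p under 0.05 in the quasi-likelihood test of edgeR, a rule that 2.93% of the tested genes met at the high dose, 0.676% at the medium and 0.111% at the low dose. In the DESeq2 runs on all libraries and on the compared groups alone, 0 of the 6 were called at each dose too. Before adjustment, 3089 of all tested genes had a p under 0.05 at the high dose, and TLR4 alone of the 6. TLR3 and TLR4 had such a p at the medium (1797 of all tested genes) and at the low dose (1223). The median log2 fold change of the 6 was 0.05, 0.06 and 0.13 at the high, medium and low dose, where that of all tested genes was 0.01, −0.01 and 0.00. Since the RNA comes from whole cultures, fewer cells that express a gene and less RNA per cell cannot be told apart.

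TLR4 had the lowest p of the 6 tested sensing genes at each dose. Its 3 vehicle libraries had 10.7, 11.3 and 12.5 CPM, the low-dose libraries 15.1, 14.9 and 14.9 CPM, the medium-dose libraries 15.3, 16.7 and 16.7 CPM and the high-dose libraries 15.9, 15.1 and 15.9 CPM. Every treated library lay above every vehicle library, and the 3 doses lay close together. The fold change was 1.36 at the high dose (95% interval 1.2 to 1.53, log2 fold change 0.44, standard error 0.0793, adjusted p = 0.00605) and 1.41 at the medium dose (1.25 to 1.58, log2 fold change 0.49, standard error 0.0785, adjusted p = 0.00898). At the low dose it was 1.3 (1.15 to 1.46), with an adjusted p = 0.11. Without the minimum fold change, TLR4 was thus called at the high dose, where 5.77% of the tested genes were, and at the medium dose, where 1.01% were, but not at the low dose (0.124%).

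The estimate for TLR4 was steadier than its adjusted p. Over 20 alternative settings, its log2 fold change at the high dose lay between 0.40 and 0.51, and its adjusted p was under 0.05 in 19 of them and 0.127 in the remaining one, edgeR fitted to vehicle and high dose only. For the medium dose the adjusted p rose to 0.0674 without vehicle replicate 2, to 0.0539 without medium replicate 2 and to 0.0612 without medium replicate 3. For the low dose it fell to 0.0155 without high-dose replicate 2 and to 0.0209 with DESeq2 on all libraries. On the per-length scale, which was not adjusted by TMM, the high-dose libraries of TLR4 had 2.91 to 3.67 and the vehicle libraries 2.38 to 3.11, so that on that scale the groups overlapped.

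TLR3, the endosomal receptor, passed the test at no dose. Its vehicle libraries had 3.14, 3.42 and 3.69 CPM, the low-dose libraries 4.36, 3.91 and 4.34 CPM, the medium-dose libraries 4.77, 4.73 and 4.59 CPM and the high-dose libraries 3.96, 2.90 and 3.94 CPM. The libraries of the low and medium doses all lay above those of vehicle, and those of the high dose overlapped them. The fold change was 1.23 at the low dose (95% interval 1.01 to 1.49, adjusted p = 0.61), 1.37 at the medium dose (1.13 to 1.66, adjusted p = 0.147) and 1.07 at the high dose (0.876 to 1.3, adjusted p = 0.755). Between the high and the low dose it was 0.871 (0.719 to 1.06, adjusted p = 0.488). Without high-dose replicate 2, the lowest high-dose library, the adjusted p at the medium dose was 0.0234.

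CD14, which hands LPS to TLR4, varied most among replicates. Its vehicle libraries had 4.35, 3.12 and 3.47 CPM, the low-dose libraries 2.34, 3.24 and 4.39 CPM, the medium-dose libraries 2.80, 2.55 and 3.07 CPM and the high-dose libraries 2.43, 3.54 and 3.51 CPM. The medium-dose libraries all lay below those of vehicle, and the other doses overlapped vehicle. The fold change of 0.776 at the medium dose had a 95% interval of 0.552 to 1.09 (adjusted p = 0.592), and at the high dose it was 0.874 (0.621 to 1.23, adjusted p = 0.702).

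NOD1 had 6.88, 7.31 and 7.09 CPM in vehicle, 7.99, 8.51 and 7.52 CPM at the low dose, 7.71, 6.70 and 7.81 CPM at the medium dose and 7.69, 6.80 and 8.82 CPM at the high dose. Its low-dose libraries all lay above vehicle, and its medium-dose and high-dose libraries overlapped vehicle. The fold change was 1.13 at the low dose (95% interval 0.96 to 1.33, adjusted p = 0.746) and 1.11 at the high dose (0.937 to 1.31, adjusted p = 0.516). NOD1 shares 741 of its 6820 exon bases with a long noncoding RNA on the opposite strand (ENSG00000272638), and the strand setting of the counting is not given in the sources used here, so its value is uncertain to that extent.

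MYD88 and IRAK1, the shared adaptor and kinase, were measured with the most counts. MYD88 had 53.8, 53.6 and 50.6 CPM in vehicle, 56.3, 54.5 and 56.0 CPM at the low dose, 56.7, 52.7 and 55.9 CPM at the medium dose and 54.9, 47.8 and 49.9 CPM at the high dose. IRAK1 had 565, 579 and 595 CPM in vehicle, 580, 609 and 591 CPM at the low dose, 617, 562 and 628 CPM at the medium dose and 629, 488 and 638 CPM at the high dose. The high-dose libraries of both genes lay on both sides of vehicle, and the lowest value of each was that of high-dose replicate 2. The 95% intervals of the fold change at the high dose were 0.871 to 1.07 for MYD88 (adjusted p = 0.763) and 0.869 to 1.17 for IRAK1 (adjusted p = 0.966), which leaves out a 1.5-fold change in either direction.

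**Figure D2:**
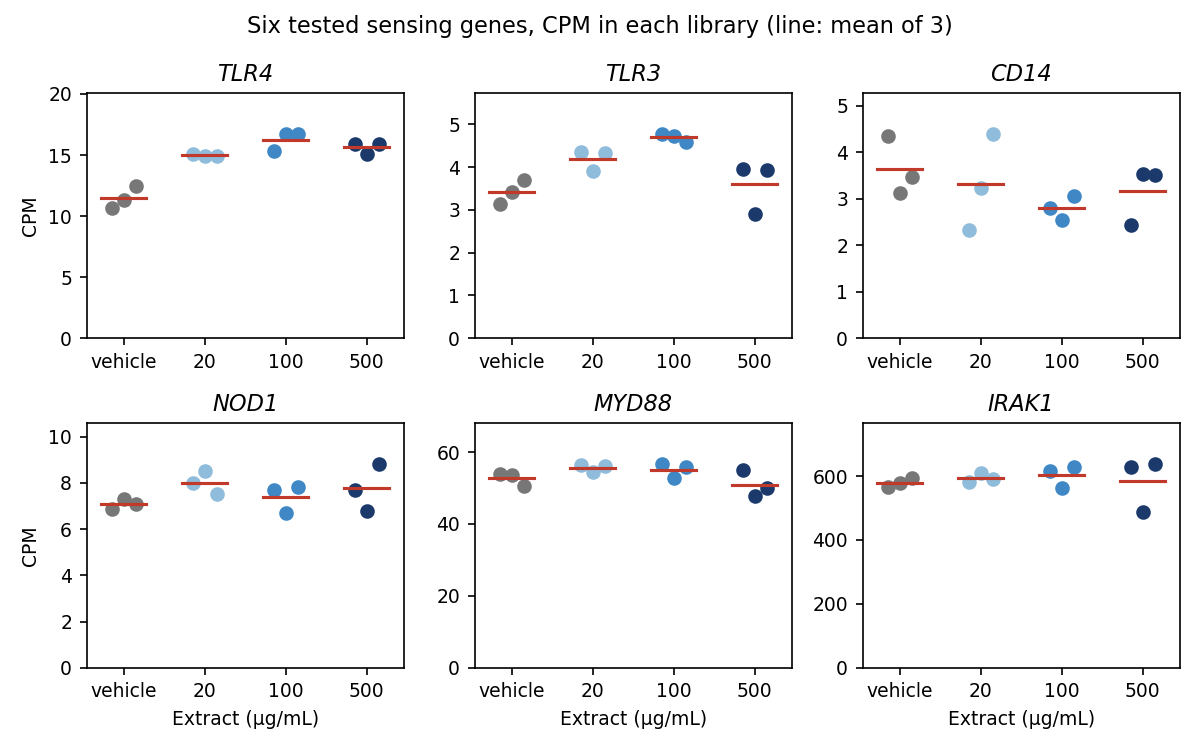
CPM of the 6 tested sensing genes in each of the 12 libraries, by dose of ACD (µg/mL). Points are libraries and red bars are means of 3, and each axis starts at 0. All 9 treated libraries of TLR4 lie above its vehicle libraries, the mean of TLR3 is highest at 100 µg/mL, where it did not pass the test, and the high-dose libraries of the other 4 genes overlap vehicle.

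**Figure D3:**
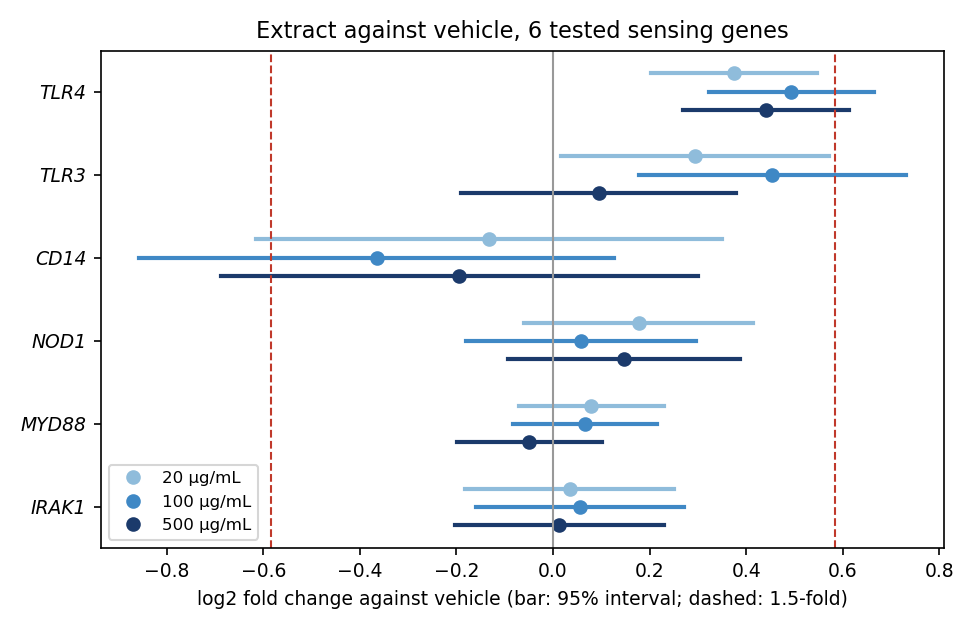
log2 fold change of each tested sensing gene against vehicle at the 3 doses, with 95% intervals as bars and dashed lines at a 1.5-fold change. The intervals of TLR4 lie above 0 at all 3 doses, with estimates of 0.37, 0.49 and 0.44, and no estimate reaches a dashed line.

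Counted over libraries, 4 of the 6 genes (TLR3, TLR4, MYD88 and NOD1) lay wholly above vehicle at the low dose, where 11.4% of all tested genes did. TLR3 and TLR4 at the medium dose lay wholly above vehicle (14.6% of tested genes) and CD14 wholly below (14.1%). At the high dose TLR4 alone lay wholly above (10.6%). These comparisons share the vehicle libraries.

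No sensing gene differed between the high and the low dose, a comparison in which 1.58% of the tested genes were DEGs, 0.748% higher and 0.833% lower at the high dose. TLR4 was 1.05 times as high at the high dose as at the low dose (95% interval 0.932 to 1.18, adjusted p = 0.694), and MYD88 was 0.915 times as high (0.825 to 1.02, adjusted p = 0.404). All 6 adjusted p-values of this comparison were 0.404 or above. Against the rank of the dose, 5.74% of the tested genes had a trend with an adjusted p under 0.05, 2.76% upward and 2.98% downward, and TLR4 was the only sensing gene among them, with a log2 change of 0.14 per dose step (adjusted p = 0.0305 from edgeR). The trend of TLR4 depended on single libraries. Without vehicle replicate 1, 2 or 3, high-dose replicate 1 or high-dose replicate 3, and without the filter on low counts, it was no longer called, and its adjusted p reached 0.104 over the alternatives.

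The genes whose log2 CPM was most like that of TLR4 over the 12 libraries were BMF, with a Pearson r of 0.969, PTGS2 with 0.955 and HIF1A with 0.939, out of 13139 genes with a mean of at least 1 CPM. BMF encodes a pro-apoptotic BCL2-family protein, PTGS2 the prostaglandin-forming enzyme COX-2 and HIF1A the hypoxia-regulated transcription factor. The 12 points share their dose groups and their library scaling, so r is a description. At the high dose the log2 fold change was 0.80 for BMF and 0.63 for PTGS2, where TLR4 had 0.44, and 0.27 for HIF1A.

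The rest of the sensing machinery was read from 10 lists with 119 genes, of which 87 were tested and 9 had no count in any library. At the high dose 7 of the 87 were upregulated DEGs and 2 were downregulated (10.3% in all), where 1.26% of all tested genes were upregulated and 1.68% downregulated. The medium dose had 7 upregulated and 1 downregulated (9.2%), where 0.384% and 0.293% of all tested genes were, and the low dose had 1 upregulated (1.15%), where 0.065% were. Their median log2 fold change was 0.07, 0.11 and 0.08 at the high, medium and low dose, and 5 of the 7 upregulated genes at the high dose were chemokines. The lists were chosen with earlier results of these data known, so their shares of DEGs are a description and no test of the pathway.

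Of the other TLRs and co-receptors, 1 of 10 was tested. TLR6 (ENSG00000174130, chromosome 4, 38822897 to 38856817), which pairs with TLR2 to bind lipoproteins, had 0.660, 0.849 and 0.835 CPM in vehicle, 1.37, 1.34 and 1.39 CPM at the low dose, 1.42, 1.63 and 1.51 CPM at the medium dose and 2.12, 1.84 and 2.21 CPM at the high dose. The groups did not overlap with vehicle, and the level was higher at each dose than at the one before in these means. TLR6 was a DEG at the high dose, with a fold change of 2.61 (95% interval 2.04 to 3.36, adjusted p = 0.000356), and at the medium dose, with 1.92 (1.49 to 2.48, adjusted p = 0.0195). At the low dose the fold change was 1.72 with an adjusted p = 0.134. Its per-length level in vehicle was 0.367 ± 0.0721, with 12 to 28 counts per library, and its partner TLR2 had no count.

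The call of TLR6 at the high dose held in all 20 alternatives, with an adjusted p of at most 0.0294. That at the medium dose was lost when any vehicle or medium-dose library was left out, with an adjusted p of up to 0.102. It was also lost without the low-count filter (adjusted p = 0.0686 from edgeR). TLR1 and TLR10, close relatives of TLR6 whose reads could be shared with it, had 9 and 0 counts in all. TLR7 and TLR10 had 0 counts, TLR8 1 and TLR9 1.12. CD36, a partner of TLR2 and TLR6, had 78 counts in all and the second highest per-length level of this list, 0.0998 ± 0.0439 in vehicle.

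Of the 5 genes whose proteins fold and move TLRs, 0 were DEGs at any dose. Their per-length levels in vehicle ran from 3.08 ± 0.675 for CNPY4 upward, and the 2 highest were LRRC59 at 176 ± 7.08 and HSP90B1, the chaperone GP96, at 145 ± 7.96. At the high dose LRRC59 had a log2 fold change of 0.03 (adjusted p = 0.897) and HSP90B1 of 0.07 (adjusted p = 0.745). Of the 5 other TIR adaptors, 0 were DEGs at any dose. TICAM1, the adaptor of TLR3, had 12 ± 0.742 per length in vehicle and a log2 fold change of 0.10 at the high dose (adjusted p = 0.768).

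PIK3AP1, an adaptor that links TLRs to PI3K, had a downward dose trend (adjusted p = 0.0141 from edgeR). Its mean was 25.3 CPM in vehicle, 27 at the low, 22.7 at the medium and 18.5 at the high dose. The level thus did not fall at the low dose. It had 23.5, 26.2 and 26.2 CPM in vehicle and 18.6, 17.3 and 19.5 CPM at the high dose, which did not overlap, and the fold change of 0.731 (95% interval 0.65 to 0.823, adjusted p = 0.00478) stayed short of 1.5-fold. The list of kinases and ubiquitin ligases below MYD88 also held transcription factors and genes below TICAM1. Of its 20 genes 19 were tested and 0 were DEGs at any dose. IRF3, the transcription factor below TICAM1, had 100 ± 5.53 per length in vehicle and a log2 fold change of −0.01 at the high dose (adjusted p = 0.966), and PELI1, a ubiquitin ligase, had 82 ± 8.19 and 0.10 (adjusted p = 0.465).

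Of the genes of NOD signalling and peptide entry, 14 of 15 were tested and 1 was a DEG. BIRC3 (ENSG00000023445, chromosome 11, 102317484 to 102339403), which encodes the ubiquitin ligase cIAP2, had 5.01, 5.06 and 4.92 CPM in vehicle, 8.24, 6.13 and 6.58 CPM at the low dose, 10.1, 10.9 and 10.1 CPM at the medium dose and 9.68, 10.9 and 11.3 CPM at the high dose. The treated libraries all lay above vehicle, and the medium and high doses overlapped each other. The fold change was 2.12 at the high dose (95% interval 1.78 to 2.54, adjusted p = 0.000171) and 2.07 at the medium dose (1.74 to 2.47, adjusted p = 0.000715), and both calls held in all 20 alternatives.

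CARD9, an adaptor of NOD2 and of fungal sensing, had an upward dose trend (adjusted p = 0.0357 from edgeR). Its means were 27.2 ± 1.07 CPM for vehicle, 32.8 ± 0.365 for the low, 30.6 ± 0.0695 for the medium and 36.2 ± 3.3 for the high dose. The medium dose thus lay below the low dose. At the high dose the fold change was 1.33, below the threshold. SHARPIN and XIAP, which act in ubiquitin signalling below NOD receptors, had the highest per-length levels of this list in vehicle, 52.1 ± 1.49 and 39.2 ± 0.811. Their log2 fold changes at the high dose were −0.06 (adjusted p = 0.701) and −0.30 (adjusted p = 0.069). SLC15A1, the intestinal peptide carrier that can take up bacterial wall peptides, had 4 counts in all.

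The other NOD-like receptors and inflammasome genes held the 2 downregulated DEGs of the high dose. NAIP (ENSG00000249437, chromosome 5, 70968166 to 71025339), a sensor of flagellin and of bacterial secretion systems in the cytosol, had 5.06, 5.49 and 5.21 CPM in vehicle, 2.97, 3.32 and 3.27 CPM at the low dose, 2.45, 3.17 and 2.21 CPM at the medium dose and 2.63, 3.47 and 1.86 CPM at the high dose. All treated libraries lay below vehicle. The fold change was 0.485 at the high dose (95% interval 0.362 to 0.65, adjusted p = 0.00764) and 0.5 at the medium dose (0.376 to 0.664, adjusted p = 0.0259). NAIP has near-identical partial copies in its region of chromosome 5, so that RSEM could have split its reads, and its value is uncertain.

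At the high dose the call of NAIP was lost in 1 of 20 alternatives, edgeR fitted to vehicle and high dose only (adjusted p = 0.0914). The medium-dose call was lost when any vehicle or low-dose library, medium replicate 1 or medium replicate 3 was left out, with an adjusted p of up to 0.167. IL18 (ENSG00000150782, chromosome 11, 112143253 to 112164096), the epithelial cytokine that inflammasomes mature, had 4.02, 3.55 and 3.47 CPM in vehicle, 2.99, 2.85 and 2.24 CPM at the low dose, 2.34, 2.97 and 2.05 CPM at the medium dose and 1.98, 2.83 and 2.12 CPM at the high dose. All treated libraries of IL18 lay below vehicle. Its fold change at the high dose was 0.618 (95% interval 0.469 to 0.815, adjusted p = 0.0462), and the call was lost in 13 of 20 alternatives, among them the loss of any library other than medium replicate 2 and high-dose replicate 2, with an adjusted p of up to 0.164.

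NLRC4, the partner of NAIP, had 32 counts in all and CASP1 had 49, and neither was tested. CASP4, which binds LPS in the cytosol, had 27.6 ± 2.84 per length in vehicle, the highest of this list, and a log2 fold change of 0.18 at the high dose (adjusted p = 0.304). PYCARD, the inflammasome adaptor ASC, followed with 23.4 ± 4.56 and a log2 fold change of 0.04 (adjusted p = 0.946).

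None of the 7 tested sensors of cytosolic nucleic acid and their adaptors was a DEG against vehicle. Of these 7, 2 were DEGs that were lower at the high than at the low dose, as were 0.833% of all tested genes. RIGI had 13.9, 17.7 and 14.7 CPM at the low dose and 9.77, 11.3 and 9.72 CPM at the high dose, a fold change of 0.661 (95% interval 0.54 to 0.81, adjusted p = 0.0329), and DHX58 had 3.88, 4.93 and 5.19 CPM and 2.97, 2.12 and 2.74 CPM, a fold change of 0.57 (0.435 to 0.747, adjusted p = 0.0303). Both encode RIG-I-like proteins that bind viral RNA. Against vehicle their fold changes at the high dose were 0.829 (adjusted p = 0.301) and 0.758 (adjusted p = 0.251). At the low dose they were 1.25 (adjusted p = 0.576) and 1.33 (adjusted p = 0.6). The alternative settings were not run for these 2 calls between doses. MAVS, the adaptor of RIG-I, had 41.5 ± 4.77 per length in vehicle and EIF2AK2, the kinase PKR, 33.9 ± 3.52, with adjusted p = 0.606 and 0.306 at the high dose.

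The list of the IL-1 receptor family holds receptors that signal through MYD88 and also inhibitors of this signal, and of its 9 genes 6 were tested and 0 were DEGs at any dose. The 2 highest were inhibitors. IL1RN, the receptor antagonist, was highest per length in vehicle at 15.7 ± 0.758, followed by IL18BP, the binding protein of IL-18, at 5.34 ± 0.794, and their adjusted p at the high dose were 0.513 and 0.837. All 13 brakes on TLR and NOD signalling were tested and 0 were DEGs. NFKBIA, the inhibitor of NF-kB, rose with the dose (trend adjusted p = 0.00997), with 21.2 ± 0.961 CPM for vehicle and 27.6 ± 3.29 CPM for the high dose, and so did ZC3H12A, an RNase that degrades cytokine mRNAs (trend adjusted p = 0.00119), with 20.5 ± 1.24 and 29.6 ± 2.45 CPM. Their fold changes at the high dose were 1.3 and 1.45. SIGIRR and TNIP2 had the highest per-length levels of the brakes in vehicle, 79 ± 4.6 and 46.5 ± 3.85, with adjusted p = 0.94 and 0.966 at the high dose.

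The secreted products held the largest changes, in chemokines that draw neutrophils and lymphocytes. Of 15 genes 8 were tested, and 5 of these (CXCL8, CXCL1, CXCL2, CXCL3 and CCL20) were upregulated DEGs at the medium and the high dose. CXCL1 (ENSG00000163739, chromosome 4, 73869393 to 73871308) was a DEG at the low dose too, with 1.98, 1.45 and 1.49 CPM in vehicle, 6.35, 6.77 and 6.80 CPM at the low dose, 13.4, 11.9 and 13.5 CPM at the medium dose and 22.2, 34.5 and 23.8 CPM at the high dose. The groups followed the dose with no overlap. The fold change of CXCL1 was 4.11 at the low dose (95% interval 3.05 to 5.53, adjusted p = 0.00177), 7.99 at the medium dose (6 to 10.6) and 16.5 at the high dose (12.4 to 21.9).

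CXCL8, which encodes interleukin-8, had 4.95, 4.18 and 3.73 CPM in vehicle, 10.6, 10.4 and 11.7 CPM at the low dose, 16.9, 19.4 and 17.8 CPM at the medium dose and 23.8, 55.6 and 30.0 CPM at the high dose. High-dose replicate 2 had the highest value of CXCL8 and CXCL1, as of CXCL3 and CCL20, and without it the log2 fold change of CXCL8 at the high dose was 2.67 in place of 3.08. The fold change at the high dose was 5.72 for CXCL2 (95% interval 3.93 to 8.3), 4.33 for CXCL3 (3.04 to 6.16) and 16 for CCL20 (9.92 to 25.7), all with an adjusted p of 0.000224 or below. The 5 chemokines were also higher at the high than at the low dose, with fold changes of 2.44 for CXCL3 to 4.35 for CCL20.

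The call of CXCL3 for the medium dose was lost when any library other than high-dose replicates 1 and 2 was left out, with an adjusted p of up to 0.148. At the low dose the fold change of CXCL8 was 2.56 (adjusted p = 0.0992) and that of CCL20 3.67 (adjusted p = 0.0762), and both passed with DESeq2, with edgeR on the compared groups alone and without high-dose replicate 2. The vehicle libraries held 4 to 12 counts of CXCL2 and of CCL20, so their fold changes rest on few reads. LCN2, an iron-binding antimicrobial protein, had the highest per-length level of the list in vehicle, 172 ± 1.98, and a log2 fold change of 0.35 at the high dose (adjusted p = 0.0264), short of 1.5-fold. IL6, TNF, IL1B, CSF2, CSF3, IFNB1 and DEFB4A had 0 to 29 counts each in all and were not tested.

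**Figure D4:**
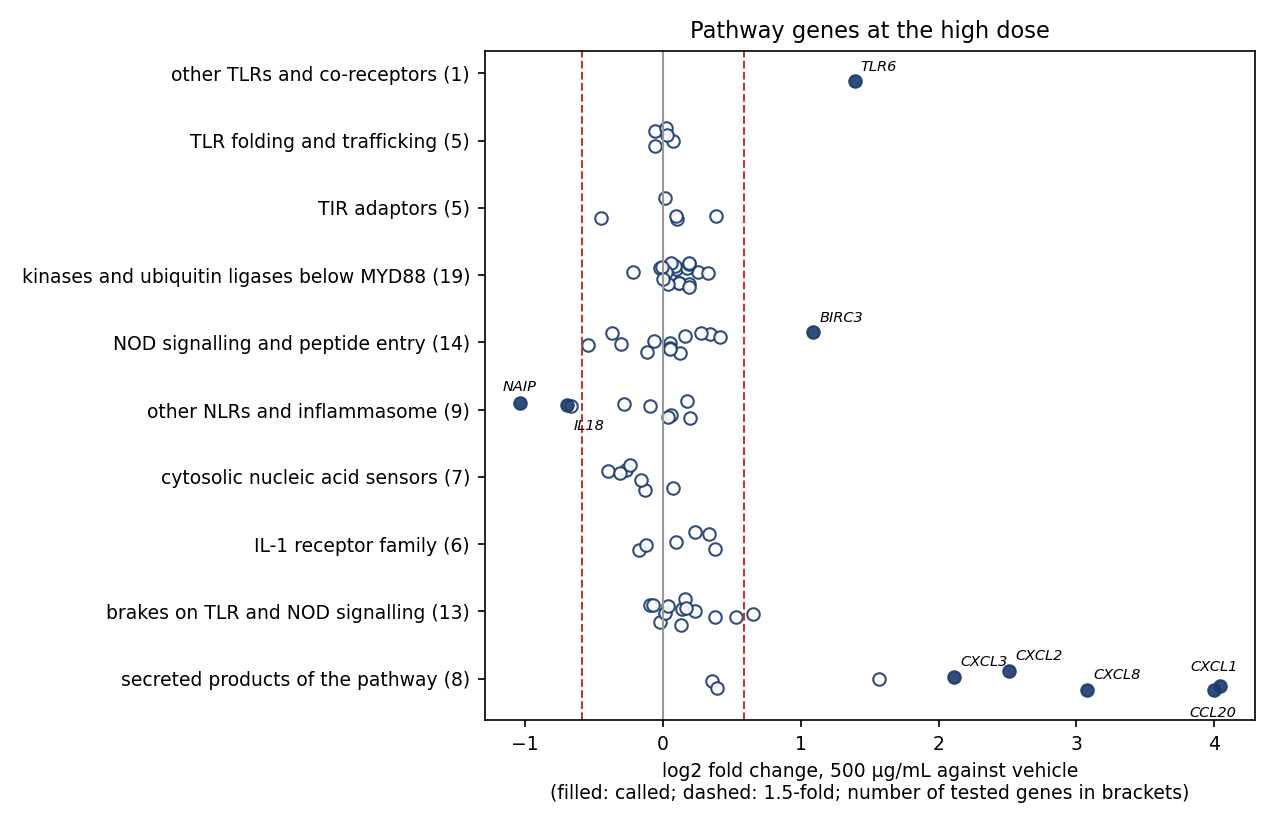
log2 fold change at 500 µg/mL against vehicle for the 87 tested genes of the 10 lists. Each point is a gene, filled points are DEGs, dashed lines mark a 1.5-fold change and brackets give the number of tested genes. The lists of trafficking, adaptors and kinases sit around 0, and the 5 filled chemokines lie between 2.11 and 4.04.

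**Figure D5:**
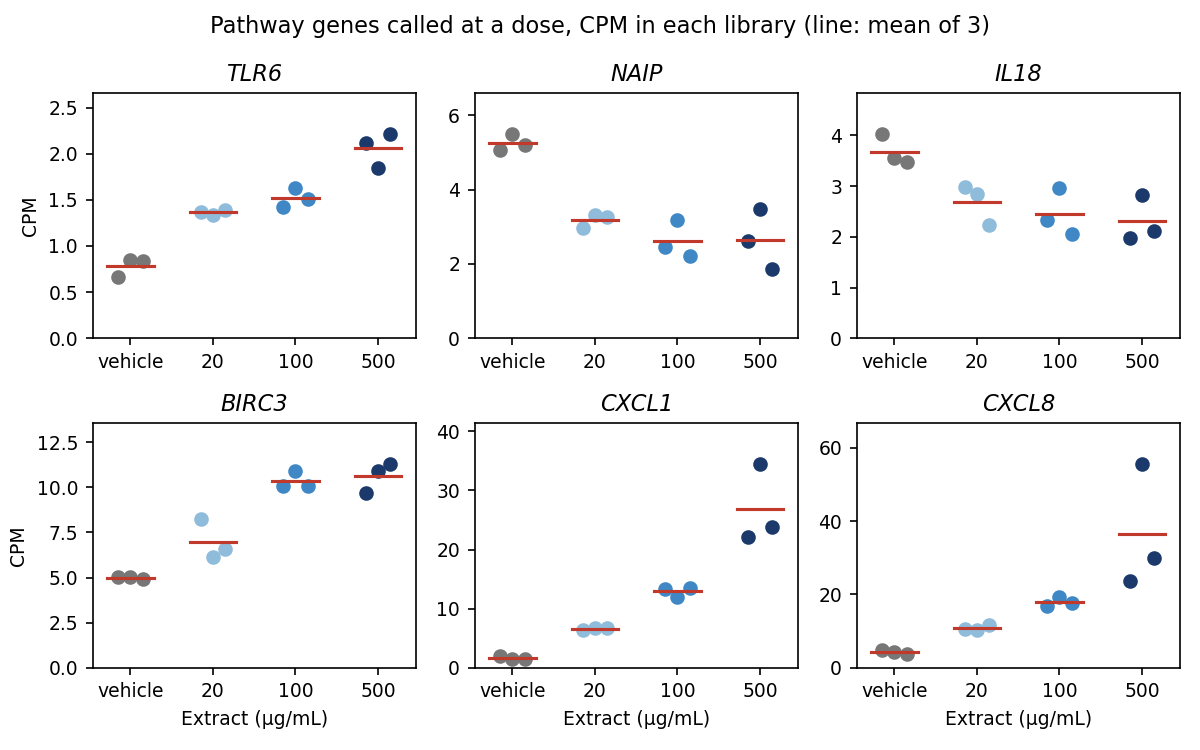
CPM of 6 pathway genes that were DEGs at a dose, in each library by dose of ACD (µg/mL). Points are libraries, red bars are means of 3 and each axis starts at 0. TLR6, BIRC3, CXCL1 and CXCL8 lie above vehicle in every treated library, and NAIP and IL18 lie below it.

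The summed level of the 12 immune cell markers was highest at the high dose, too. It was 8.46 to 9.62 CPM in vehicle and, from the low to the high dose, 8.7 to 11.1, 9.31 to 10.9 and 12.3 to 14.2 CPM. Their part in the results was not tested. This sum came almost wholly from CD68, with a mean of 7.23 CPM in vehicle and 10.7 at the high dose, and ITGAM, with 1.39 and 2.29, and the defining markers PTPRC, CD3E, CD163 and CSF1R were at 0 in every high-dose library or, for CD3E, at a mean of 0.0102 CPM. The summed level of 9 fibroblast and endothelial markers was 2.73 to 3.16 CPM in vehicle and 2.41 to 3.32 at the high dose.

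Promoter sequence is shown for TLR4, which had the lowest p of the 10 sensing genes at the high dose, for TLR6, the TLR that was a DEG, for TLR2, the partner of TLR6 that had no count, and for CXCL1, the chemokine with the lowest adjusted p. Each is the RefSeq window on GRCh38.p14 from 250 bases before to 50 bases after an annotated start, 5′ to 3′ on the strand of the gene, in lower case with matches to GGNNTTTCC, a kB-type motif bound by NF-kB, in capitals. The motif was searched on both strands, was chosen after the chemokine values were seen, and stands in 6.26% of 35116 such windows. The windows lie at chr9:117704153-117704452 on the plus strand for TLR4, chr4:38856768-38857067 on the minus strand for TLR6, chr4:153684030-153684329 on the plus strand for TLR2 and chr4:73869143-73869442 on the plus strand for CXCL1.
TLR4: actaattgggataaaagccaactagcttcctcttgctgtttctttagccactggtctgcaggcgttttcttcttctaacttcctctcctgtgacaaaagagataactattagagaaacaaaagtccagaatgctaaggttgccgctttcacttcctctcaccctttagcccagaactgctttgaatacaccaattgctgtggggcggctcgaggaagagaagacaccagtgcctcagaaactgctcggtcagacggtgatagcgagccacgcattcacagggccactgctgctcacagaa
TLR6: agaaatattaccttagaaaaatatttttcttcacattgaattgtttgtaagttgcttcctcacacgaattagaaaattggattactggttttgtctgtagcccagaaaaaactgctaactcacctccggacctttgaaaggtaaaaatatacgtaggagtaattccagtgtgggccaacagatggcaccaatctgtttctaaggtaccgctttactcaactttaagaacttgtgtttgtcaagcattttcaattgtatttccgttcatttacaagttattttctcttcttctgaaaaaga
TLR2: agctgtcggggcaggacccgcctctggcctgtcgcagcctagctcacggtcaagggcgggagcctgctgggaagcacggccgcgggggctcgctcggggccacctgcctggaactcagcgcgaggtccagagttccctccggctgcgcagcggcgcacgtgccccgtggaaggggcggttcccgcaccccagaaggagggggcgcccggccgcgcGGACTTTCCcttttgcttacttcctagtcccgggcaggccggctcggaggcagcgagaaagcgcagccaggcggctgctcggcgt
CXCL1: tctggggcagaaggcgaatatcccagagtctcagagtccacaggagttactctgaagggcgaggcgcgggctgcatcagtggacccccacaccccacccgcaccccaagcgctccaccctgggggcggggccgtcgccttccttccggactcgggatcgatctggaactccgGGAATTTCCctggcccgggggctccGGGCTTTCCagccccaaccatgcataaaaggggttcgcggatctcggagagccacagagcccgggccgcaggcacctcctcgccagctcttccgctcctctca
The windows of TLR4 and TLR6 held no match. That of TLR2 held 1 match, 35 bases before the start, and that of CXCL1 held 2, at 78 and 53 bases before the start.

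Windows of 9 of the 10 sensing genes were compared, with 2 for NOD2, and of these 9 genes TLR2 alone had a match. No window of LY96 entered this comparison, so whether it holds a match is not reported here. A match is a description of letters in this window, not a binding site. The windows also differed in CpG, with a median of 14 over all windows. IRAK1 had 52, TLR2 33, NOD1 32, TLR5 27 and MYD88 25, whereas TLR4 and CD14 had 8 each, TLR3 and TLR6 5 each and the windows of NOD2 6 and 5. TLR2 and TLR5, at or near 0 counts, were thus among the sensing genes with the most CpG. So was IRAK1, the gene with the highest level, whereas NOD2, also near 0 counts, was among those with the fewest.

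Of the 9 pathway genes that were DEGs at a dose, 7 had a window and 6 of these held the motif, TLR6 being the exception. The matches outside CXCL1 are shown with 10 bases on each side, on the strand of the gene, to compare the chemokine genes with BIRC3. In CCL20 and BIRC3 the match is on the opposite strand, so that its capitals read as the reverse complement of the motif. The CCL20 window belongs to a start inside the gene, downstream of the outermost start in GENCODE. The same holds for the NOD2 windows and, over shorter distances, for several others, those of TLR2, TLR4 and CD14 among them.
CXCL8 (chr4:73740468-73740496): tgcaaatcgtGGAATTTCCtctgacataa
CXCL2 (chr4:74099254-74099282): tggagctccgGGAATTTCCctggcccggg
CXCL2 (chr4:74099230-74099258): ccgggactccGGGCTTTCCagccccaacc
CXCL3 (chr4:74038749-74038777): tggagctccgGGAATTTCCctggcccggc
CXCL3 (chr4:74038724-74038752): cggccgctccGGGCTTTCCagtctcaacc
CCL20 (chr2:227813753-227813781): tgatcaatggGGAAAACCCcatgtggcaa
BIRC3 (chr11:102317275-102317303): tttgggtcatGGAAATCCCcgagtgggtt
CXCL1, CXCL2 and CXCL3, neighbours on chromosome 4, each held 2 matches, which started at 78, 77 and 78 bases before the start for the first and at 53 for the second in all of them. The letters of the matches were the same in the 3 genes.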

How the data were processed

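RNA from 12 HT29 libraries was analysed. The deposited values are expected counts per gene. Per the labels' processing notes, the authors used FastQC 0.11.9, Trim Galore 0.6.5, STAR 2.7.3a and RSEM 1.3.3 on GRCh38, and the paper's methods give other versions of some of these. Expected counts were rounded to whole numbers and fitted in edgeR 4.0.16 under R 4.3.3 (filterByExpr, TMM scaling, robust quasi-likelihood), with all 12 libraries in a joint fit. p-values were adjusted by Benjamini–Hochberg over 15374 genes. The dose trend used the dose rank. DESeq2 1.42.0 was an alternative. CPM are TMM-scaled, and log2 CPM used a prior count of 2. Per-length levels used exon lengths of GENCODE 44, which held 93.2% of the IDs. In simulated data with this design, edgeR called 188 of 200 genes changed by a fold of 2 at the high dose, with 4 wrong calls among 15374 genes. That simulation only checked the code. It gave all genes the same dispersion, changed only genes above 1 CPM and held no outlying library such as high-dose replicate 2. Its rates therefore do not carry over to these data.

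The sensing genes, the 10 lists and the tests were chosen with earlier results of these data known. Named genes are the 10 sensing genes, list genes called at a dose or in the trend, the 2 with the highest per-length level in vehicle of each list, and the 3 genes most correlated with the sensing gene of smallest p at the high dose. RIGI and DHX58, called between the high and low dose, CNPY4 and the listed genes at or near 0 counts were named after their values were seen. Promoter windows came from RefSeq and were read in Python 3.11.15. No columns held fold changes or p-values of the authors. The SW1783 libraries of the study were not analysed here.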

Additional observations from a re-analysis of the deposited data

How the results depend on the processing

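The alternatives were DESeq2 or edgeR on all libraries or on the compared groups alone, DESeq2 size factors, filters on low counts, library sizes without the mitochondrial genome, no fold threshold, a replicate block, and leaving out each library. The count of sensing genes called stayed at 0 at each dose and between doses in all of them, except without a minimum fold change, when it was 1 at the high and 1 at the medium dose (TLR4). The count with a trend was 1, and it was 0 without the low-count filter, 0 with the replicate block (TLR4, adjusted p = 0.0606) and 0 to 1 with a library left out. Vehicle and treated libraries of the same replicate number had correlations of −0.495 to 0.372. With groups of 3 and high-dose replicate 2 apart, these do not settle whether the numbers pair the samples. With the replicate block TLR6 and CXCL3 at the medium dose and IL18 at the high dose were also not called (adjusted p = 0.057, 0.0685 and 0.0514 from edgeR). These calls thus depend on whether the block is used.

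Of the pathway genes, 9 were called at the high dose, 14 without a minimum fold change and 8 to 12 with a library left out. At the medium dose 8 were called, 5 with DESeq2 on the compared groups, which gave no adjusted p for some chemokines, and 5 to 9 with a library left out. At the low dose 1 was called, 3 with DESeq2 on all libraries, 4 with DESeq2 and 4 with edgeR on the compared groups, 2 without the low-count filter and 1 to 4 with a library left out, the highest without high-dose replicate 2. Over all genes the high dose gave 451, 172 with edgeR on the compared groups, 887 without a minimum fold change and 310 to 768 with a library left out. The medium dose gave 104, 191 with edgeR on the compared groups and 52 to 249, and the low dose gave 17, 48 and 62 with DESeq2 on all libraries and on the compared groups, 51 with edgeR on the latter, 34 without the filter and 10 to 109. The upper bounds were reached without high-dose replicate 2, and the cause was not tested.

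Some values near 0 changed sign with a library left out, none of them called. The log2 fold change ranged from −0.0257 to 0.000869 for the MYD88 trend, −0.373 to 0.0701 for CD14 at the low dose, −0.256 to 0.187 for CD14 and −0.14 to 0.0491 for NOD1 between the high and low dose, and for IRAK1 from −0.0528 to 0.129 at the high dose, −0.0879 to 0.094 between doses and −0.00794 to 0.0392 in the trend. Without TMM the high-dose level was 14.5 CPM for TLR4 and 47.1 CPM for MYD88, in place of 15.7 and 50.9. With the length of the longest transcript, the per-length levels in vehicle were 2.25 for TLR4, 31.6 for MYD88, 5.42 for CD14 and 3.8 for NOD1, so that NOD1 stayed above TLR4. Groups of 3 libraries and the low counts of TLR2, TLR5, LY96 and NOD2 limit what can be detected.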
